A study of Mus musculus with 24 samples.

Results

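Chromatin accessibility was examined at the genes of 10 feedback inhibitors of cytokine and MAP kinase signalling: Socs1, Socs2, Socs3, Cish, Dusp1, Dusp2, Dusp4, Dusp5, Dusp16 and Zfp36. Consensus peaks (mm10) that overlapped the GENCODE vM21 gene record of a member, or lay within 20 kb on either side of it, were each given to the nearest member. This took 142 of the 184158 consensus peaks: 11 at Socs1, 12 at Socs2, 15 at Socs3, 12 at Cish, 20 at Dusp1, 4 at Dusp2, 9 at Dusp4, 14 at Dusp5, 37 at Dusp16 and 8 at Zfp36. Of these, 11 covered a start of a member, 50 lay elsewhere in a gene record and 81 in the flanks. For 97 of the 142 the nearest coding start was the member's own, and 4 covered the promoter of another coding gene (Mapkapk3, Ergic1, Plekhg2 and the shared promoter of Med29 and Paf1). The filter on low counts passed 140 peaks and left out 1 at Socs2 and 1 at Dusp4.

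ATAC-seq, which uses a transposase to tag accessible DNA, had been run on bone marrow-derived macrophages (BMDMs) that were differentiated in 10% serum with GM-CSF at 10 ng/ml and TGF-β at 2 ng/ml to resemble alveolar macrophages. The 4 groups of 6 libraries were WT (C57BL/6J) and AhR-KO (B6.129-Ahr tm1Bra/J) cultures, each either left unstimulated or given LPS, from age- and sex-matched young adult mice. AhR, the aryl hydrocarbon receptor, is a ligand-activated transcription factor, and the knockout is a germline deletion carried by every cell type of the mouse. LPS, a bacterial cell wall component sensed by TLR4, was added on day 6 at 97 EU/ml for 24 h, followed by 5 µM calcium ionophore for 10 min; the labels attach this protocol to every library, so that whether the unstimulated cultures received the ionophore is not given. The comparisons asked how loss of AhR changed accessibility in resting and in LPS-stimulated BMDMs. In these bulk libraries, fewer cells with an open site and less opening per cell cannot be told apart.

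SOCS proteins and CISH are induced by cytokines through STAT transcription factors, bind activated receptors or JAK kinases through an SH2 domain, and close a negative feedback loop on the pathway that induced them. DUSP proteins remove phosphates from both the threonine and the tyrosine of activated MAP kinases, and differ in whether they prefer ERK, JNK or p38. ZFP36 (tristetraprolin) binds AU-rich elements of cytokine mRNAs such as that of TNF and speeds their decay. In macrophages, SOCS1, SOCS3, DUSP1 and ZFP36 are known to restrain the response to LPS, while DUSP2 is known to favour the production of inflammatory mediators.

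Sequences are shown for 6 of the regions described below: the promoters of Socs1, the only one to pass the threshold with LPS, and of its relatives Socs3 and Cish, and 3 distal peaks that moved with LPS or genotype. The promoters were taken from RefSeq (GRCm38.p6; 8 of the 10 members had an entry, Socs2 and Dusp4 had none) and read 5′ to 3′ along the gene; the distal windows are the 300 bases around the midpoint of the peak on the plus strand. Capitals mark matches, on either strand, to any of 7 motifs: the AhR core GCGTG, STAT TTCNNNGAA, AP-1 TGANTCA, CRE TGACGTCA, PU.1 GAGGAAGT, the ISRE repeat GAAANNGAA and the NF-κB motif.
Socs1 promoter, chr16:10785487-10785786, minus strand: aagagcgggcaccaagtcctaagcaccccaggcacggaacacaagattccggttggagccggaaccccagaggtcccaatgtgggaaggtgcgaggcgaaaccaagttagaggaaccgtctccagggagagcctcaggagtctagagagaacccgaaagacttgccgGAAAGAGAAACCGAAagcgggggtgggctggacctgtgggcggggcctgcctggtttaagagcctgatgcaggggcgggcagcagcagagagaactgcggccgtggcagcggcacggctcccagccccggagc
Socs3 promoter, chr11:117969317-117969616, minus strand: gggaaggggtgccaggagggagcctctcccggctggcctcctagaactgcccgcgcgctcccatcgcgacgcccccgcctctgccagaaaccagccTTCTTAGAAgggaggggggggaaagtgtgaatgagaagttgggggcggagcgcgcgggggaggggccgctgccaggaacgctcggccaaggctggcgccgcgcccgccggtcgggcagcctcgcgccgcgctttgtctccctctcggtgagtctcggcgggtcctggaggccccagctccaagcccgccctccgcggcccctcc
Cish promoter, chr9:107296409-107296708, plus strand: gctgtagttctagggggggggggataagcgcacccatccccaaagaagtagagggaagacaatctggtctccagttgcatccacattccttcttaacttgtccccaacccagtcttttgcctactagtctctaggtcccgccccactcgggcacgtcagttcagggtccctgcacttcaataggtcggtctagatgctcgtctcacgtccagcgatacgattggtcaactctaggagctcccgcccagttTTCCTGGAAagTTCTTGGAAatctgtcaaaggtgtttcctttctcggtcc
Socs3 downstream peak, chr11:117962174-117962473, plus strand: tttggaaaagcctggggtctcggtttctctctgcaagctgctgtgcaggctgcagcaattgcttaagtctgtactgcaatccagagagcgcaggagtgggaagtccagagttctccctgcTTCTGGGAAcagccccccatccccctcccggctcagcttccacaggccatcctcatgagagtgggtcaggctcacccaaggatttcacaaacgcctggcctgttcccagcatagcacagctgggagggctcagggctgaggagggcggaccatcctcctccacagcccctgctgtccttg
Dusp5 upstream peak, chr19:53511756-53512055, plus strand: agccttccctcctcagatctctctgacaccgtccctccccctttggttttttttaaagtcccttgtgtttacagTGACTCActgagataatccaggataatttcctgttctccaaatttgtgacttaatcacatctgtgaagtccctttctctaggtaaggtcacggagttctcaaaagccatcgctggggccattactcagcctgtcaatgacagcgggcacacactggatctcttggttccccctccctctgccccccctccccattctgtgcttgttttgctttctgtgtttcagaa
Zfp36 downstream peak, chr7:28358097-28358396, plus strand: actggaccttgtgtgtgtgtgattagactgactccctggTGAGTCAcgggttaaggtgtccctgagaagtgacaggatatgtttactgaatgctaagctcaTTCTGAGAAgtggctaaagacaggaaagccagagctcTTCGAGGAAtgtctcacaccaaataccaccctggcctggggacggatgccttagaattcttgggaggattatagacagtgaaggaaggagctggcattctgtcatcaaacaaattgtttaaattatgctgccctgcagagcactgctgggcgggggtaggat

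The Cish promoter held 2 STAT matches close together, TTCCTGGAA and TTCTTGGAA, starting at positions 251 and 262 of the 300 bases. The Socs3 promoter held 1, TTCTTAGAA, at position 97. Its window lies inside the Socs3 gene records, whose 5′ ends are at 117970047 (GENCODE) and 117970336 (RefSeq). The Socs1 and Cish windows span the 5′ ends of their RefSeq records. A STAT match was present in 8.3% of the 32851 mouse promoters of the same length. The Socs1 promoter held 2 overlapping ISRE matches, GAAAGAGAA and GAAACCGAA, where 8.56% of all promoters held at least 1. Of the distal windows, the Socs3 peak held the STAT match TTCTGGGAA, the Dusp5 peak the AP-1 match TGACTCA, and the Zfp36 peak both an AP-1 match (TGAGTCA) and 2 STAT matches (TTCTGAGAA and TTCGAGGAA). Across the 140 tested peaks, the 300 bases around the midpoint held a STAT match in 14.3%, an AP-1 match in 18.6%, an AhR core in 17.9%, an ISRE repeat in 12.9%, a PU.1 match in 9.29%, an NF-κB match in 6.43% and a CRE in 0.714%. The same shares over 174106 tested peaks of the whole table were 11%, 18.1%, 16.3%, 10.9%, 7.49%, 4.89% and 0.48%. These matches are descriptions of the letters and say nothing about binding.

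Between 8.54 and 34.6 M counts per library fell in peaks, the fewest in a WT unstimulated library. Of the 7 macrophage markers, 6 had a peak at their promoter, while none of the 3 T cell and none of the 3 B cell markers had one. In unstimulated cultures the group means (WT, then AhR-KO) were 21.3 and 22.5 CPM at Adgre1 (F4/80), 24 and 27.4 at Lyz2, 24.2 and 36.1 at Cd68, 17.1 and 28.2 at Itgax, 21 and 28.6 at Mertk and 2.98 and 5.62 at Marco. With LPS they were 22.4 and 21.6 CPM at Adgre1, 18.7 and 17.8 at Lyz2, 22 and 22.5 at Cd68, 22.2 and 28.9 at Itgax, 13.9 and 16.3 at Mertk and 1.82 and 2.62 at Marco. All 3 dendritic cell markers, 1 of 3 neutrophil markers (S100a8) and 2 of 3 fibroblast markers had a promoter peak. The dendritic cell markers had no common direction by genotype at rest. With LPS all 3 averaged lower in AhR-KO, Siglech only barely. Flt3 stood at 9.07 CPM in WT and 4.09 CPM in AhR-KO unstimulated cultures and at 11.6 and 4.73 CPM with LPS, Zbtb46 at 21.6 and 25.1 and then 18 and 15.8 CPM, and Siglech at 4.78 and 2.85 and then 1.8 and 1.78 CPM. The part of these markers in the results was not tested. Levels below are in CPM, counts scaled to a TMM-normalised total of 1 M, and the values of 6 libraries are given as lowest, median and highest.

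Loss of AhR changed a minority of the 140 tested peaks, and LPS changed many, mostly upwards. A differentially accessible region (DAR) had an adjusted p of at most 0.05 over all 174193 tested peaks (edgeR quasi-likelihood test, Benjamini-Hochberg) and changed by 1.5-fold or more. In unstimulated BMDMs, AhR-KO had 10 member peaks lower than WT (7.14%) and 9 higher (6.43%), against 12.6% and 9.95% of all tested peaks. With LPS, 18 were lower (12.9%) and 10 higher (7.14%), against 13.1% and 13.4%. LPS raised 58 peaks in WT (41.4%) and lowered 5 (3.57%), where 25.4% of all peaks rose and 21.6% fell. In AhR-KO, LPS raised 57 (40.7%) and lowered 10 (7.14%), where 27.3% rose and 21.5% fell. The interaction, the genotype difference with LPS minus that without it, was lower in 8 peaks (5.71%) and higher in 7 (5.0%), against 4.58% and 5.83%. For genotype, both resting shares and the share higher with LPS were thus below those of the whole table, and the share lower with LPS was near it. The shares for the interaction were close to the whole table, and the share raised by LPS was above it in both genotypes. Within levels the order could turn: under 2 CPM, 25.6% of member peaks were lower in AhR-KO with LPS against 16.9% of all peaks, and above 10 CPM, 4.35% were lower and 6.52% higher at rest against 2.56% and 5.92%. The count higher in AhR-KO with LPS fell from 10 to 6 without WT LPS replicate 1.

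The median log2 difference of the 140 peaks was 0.02 for genotype in both states, 0.44 for LPS in WT and 0.42 for LPS in AhR-KO, beside -0.02, 0.02, -0.01 and 0.05 over all tested peaks. The 6 libraries of each group did not overlap at 28 of the 140 member peaks for genotype without LPS and at 18 (12.9%) with it, against 21% and 19.6% of all peaks. For LPS this was 48.6% in WT and 50.7% in AhR-KO, against 38.7% and 45.6%. Peaks of low level took a large part of the rise: of 43 member peaks under 2 CPM on average, 69.8% rose with LPS in WT, and of 46 above 10 CPM, 26.1% did, where the same shares over all peaks were 29.5% and 11.4%. A peak that passed the filter only through its LPS libraries had to differ, so these shares are given as a description. The filter asked for 6 libraries above 0.41 CPM. Taking 1 group at a time, 2 member peaks passed only through the WT LPS libraries and 2 only through the AhR-KO LPS libraries. Of these, 3 are among the DARs for genotype with LPS. Further peaks passed only through the LPS libraries of both genotypes together, so that the filter favoured their rise with LPS. Among them are the Dusp1 peak 31.9 kb into the record, the Dusp5 peak 17.2 kb upstream and the Socs3 peak 13.7 kb upstream. Of the peaks raised by LPS, 48 were raised in both genotypes, 10 passed in WT alone and 9 in AhR-KO alone. None moved in opposite directions. The 10 in WT alone include the 2 peaks that passed the filter only through the WT LPS libraries. Dusp16 supplied 22 of the 58 peaks raised in WT.

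**Figure D1:**
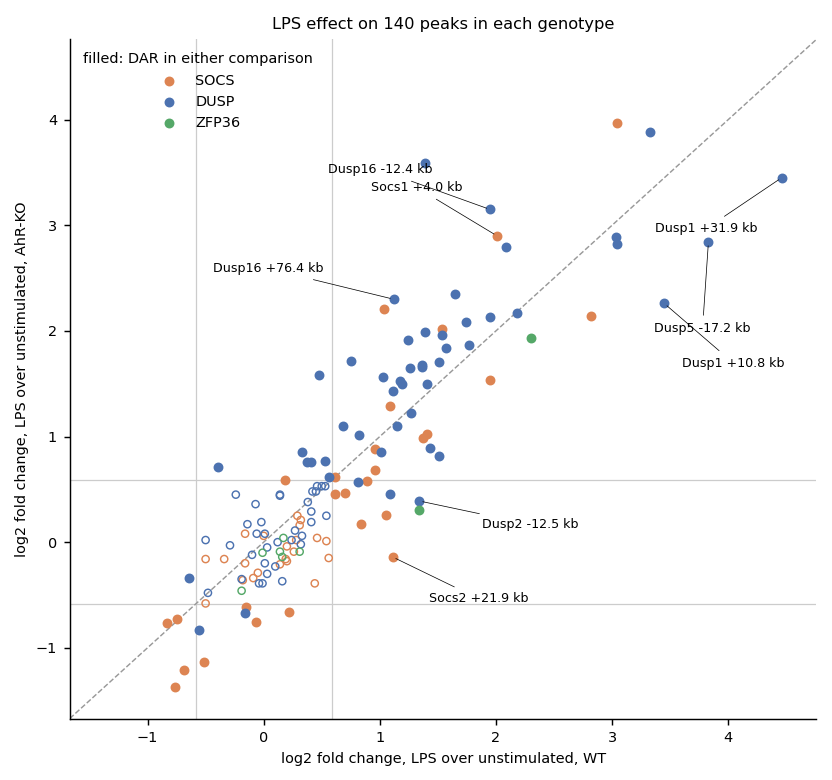
Each point is 1 of 140 tested peaks, with the log2 fold change of LPS over unstimulated in WT on the x axis and in AhR-KO on the y axis; grey lines mark a 1.5-fold change and the dashed line equal values. Most filled points (DARs in either genotype) lie in the upper right, where 48 peaks rose in both genotypes, and the Socs2 peak at +21.9 kb rose in WT (1.11) but stood at -0.14 in AhR-KO.

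At the promoters, nearly all changes stayed below the fold limit. Of the 11 peaks over a start of a member, none was a DAR between genotypes and 1, at Socs1, was a DAR with LPS. Most of them averaged above 10 CPM. Of all tested peaks at that level, 2.56% were lower and 5.92% higher in AhR-KO at rest, and 3.77% and 3.75% with LPS. LPS raised 11.4% and lowered 12.9% of them in WT. Few DARs between genotypes would thus be looked for among 11 peaks. Read pairs at the Socs1 promoter (chr16:10784726-10787756) stood at 49.1, 51.8 and 59.2 CPM in WT unstimulated and 70.0, 80.6 and 93.5 CPM in WT LPS. The groups did not overlap, with a log2 fold change of 0.61 ± 0.067 (SE; adjusted p = 8.53e-10, edgeR), and the value fell to 0.56, below the 1.5-fold limit, without WT LPS replicate 2. In AhR-KO the same promoter rose from a mean of 54.8 ± 3.56 (SD, n = 6) to 75.3 ± 7.69 CPM, a log2 fold change of 0.46 that passed the adjusted p (1.87e-07, edgeR) but not the fold limit. The Cish promoter (chr9:107295460-107297137), which had the highest mean over the 4 groups, averaged 60.9 CPM at rest and 75.8 CPM with LPS in WT, and 73.7 and 85.4 CPM in AhR-KO. Its log2 differences were all under the fold limit, from 0.17 for genotype with LPS to 0.32 for LPS in WT.

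Below the fold limit, promoters differed between genotypes in both directions. At rest the Cish, Socs3 and short-transcript Dusp1 promoters were higher in AhR-KO (0.27, 0.26 and 0.22, adjusted p = 1.75e-05, 0.00563 and 0.00947, edgeR). The Dusp4 promoter was lower (-0.26, adjusted p = 0.000943, edgeR). With LPS the Cish promoter was higher (0.17, adjusted p = 0.00304, edgeR) and the Dusp5 promoter lower (-0.17, adjusted p = 0.0138, edgeR). The Dusp4, Dusp2 and Socs2 promoters were also lower with LPS. The Dusp4 promoter (chr8:34806819-34809116) differed by -0.47 ± 0.0601 with LPS (adjusted p = 7.47e-08, edgeR), with 24.9, 27.9 and 30.7 CPM in WT LPS against 18.5, 20.4 and 22.2 CPM in AhR-KO LPS, which did not overlap. The Dusp2 promoter (chr2:127335181-127336741) differed by -0.42 ± 0.0843 with LPS (adjusted p = 8.73e-05, edgeR), from a mean of 20.1 to 14.9 CPM, while without LPS it stood at 17.8 CPM in WT and 19.4 CPM in AhR-KO (0.11, adjusted p = 0.342, edgeR). The Socs2 promoter (chr10:95414518-95418142) differed by -0.36 ± 0.0592 with LPS (adjusted p = 5.58e-06, edgeR), from 62.2 to 48.5 CPM. The GENCODE record of Dusp1 begins at the start of the neighbouring Ergic1, and the peak there (chr17:26560581-26562241) stayed between group means of 9.04 and 9.59 CPM. The peak over the short Dusp1 transcripts, which match the RefSeq record (chr17:26507159-26509742, added from the annotation), averaged 25.9 CPM at rest and 32.7 CPM with LPS in WT, and 30.2 and 31.5 CPM in AhR-KO. The Zfp36 promoter (chr7:28379033-28379615), over the start of a shorter transcript since no peak covered the 5′ end of the gene record, stood between 14.1 and 15.7 CPM on average.

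**Figure D2:**
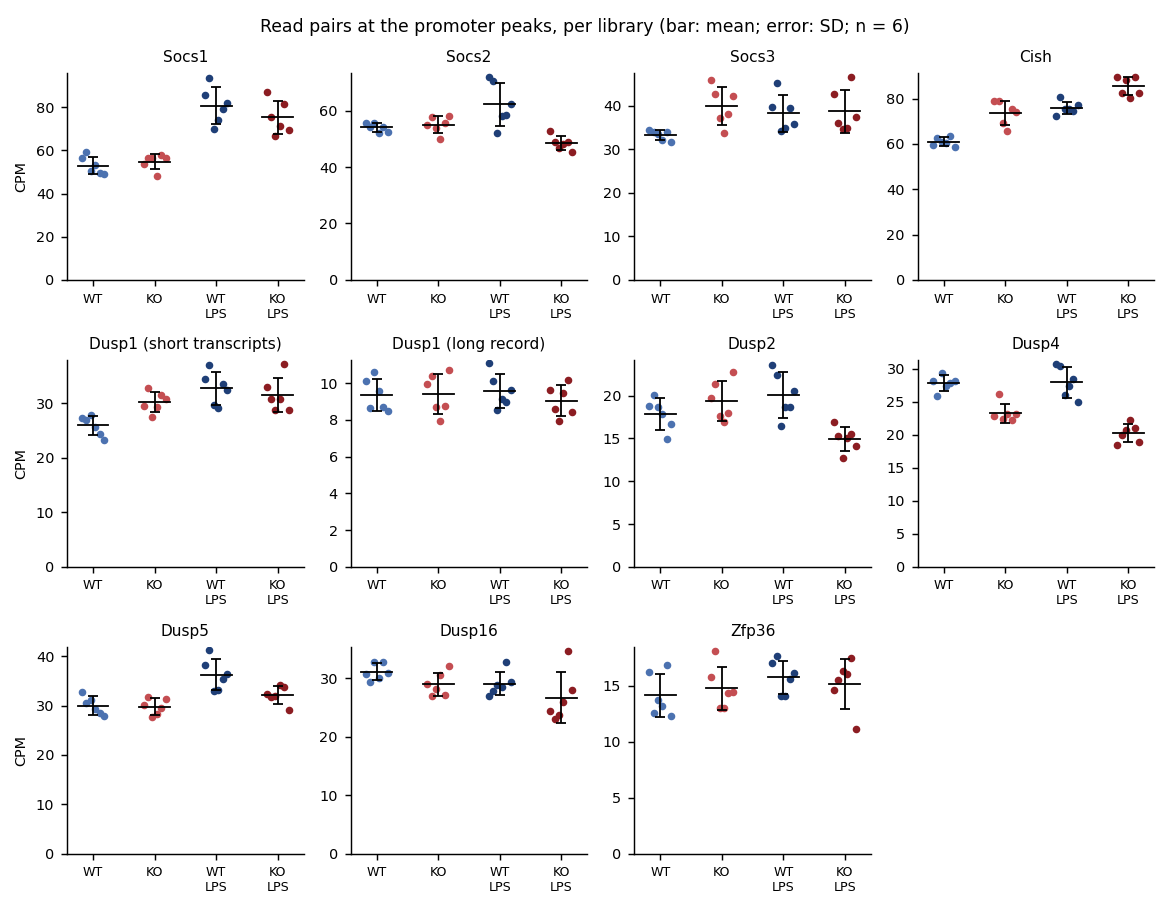
CPM at the promoter peaks of the 10 members, 1 point per library, with the mean and SD of 6 libraries per group; Dusp1 has 2 panels, for the start of its long gene record and of its short transcripts. Only the Socs1 panel shows a DAR, the rise from 53.0 to 80.8 CPM with LPS in WT.

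Socs1, which blocks JAK kinases downstream of interferon receptors, had 11 peaks, and with LPS 6 of them were lower in AhR-KO and 1 was higher. Distances are from the 5′ end of the gene record to the middle of the peak. The peak 16.2 kb downstream (chr16:10768638-10769967) stood at 22, 23 and 24.6 CPM in resting WT and 19.1, 21.1 and 23.4 CPM in resting AhR-KO. With LPS it stood at 14.1, 16.1 and 19.6 CPM in WT and 8.26, 9.6 and 11.4 CPM in AhR-KO. All AhR-KO LPS libraries were below all others, with a genotype difference of -0.76 ± 0.0816 with LPS (adjusted p = 1.98e-09, edgeR) and -0.14 without. LPS lowered it by a log2 value of -1.13 ± 0.082 in AhR-KO (adjusted p = 1.06e-14, edgeR) and -0.51 in WT, and the interaction of -0.62 moved to -0.56, under the fold limit, without WT LPS replicate 2. Its neighbours at 13.2 kb (chr16:10772097-10772587) and 10.7 kb (chr16:10774543-10775079) were lower in AhR-KO with LPS by log2 values of -1.05 ± 0.125 and -0.88 ± 0.12 (adjusted p = 1.7e-08 and 2.06e-07, edgeR). The 13.2 kb peak was lower without LPS too, at -0.69.

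A different pattern was seen over and beyond the 3′ end of Socs1 (chr16:10780617-10782451, 4.0 kb from the 5′ end). It stood at 4.72, 6.76 and 7.86 CPM in WT unstimulated and 2.51, 3.14 and 4.17 CPM in AhR-KO unstimulated, and rose to 22.1, 26.4 and 29.5 CPM in WT LPS and a median of 24.5 CPM in AhR-KO LPS, whose lowest library had 19.9. The genotypes did not overlap at rest (-0.94 ± 0.137, adjusted p = 1.19e-06, edgeR) and overlapped with LPS (-0.06). LPS raised it by 2.01 ± 0.114 in WT and 2.9 ± 0.122 in AhR-KO, an interaction of 0.88 ± 0.169 (adjusted p = 0.000551, edgeR). The authors' broad peaks, called in each library on its own, covered it in 0 of the 6 libraries of either unstimulated group and in all 6 of either LPS group. Further upstream, at 8.4 kb, a peak (chr16:10793452-10794437, chosen after its values were seen) of 0.314 CPM in WT unstimulated reached 2.26 CPM with LPS in WT and 1.29 CPM in AhR-KO, a genotype difference of -0.81. It passed the filter only through its LPS libraries, which favoured its rise with LPS.

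Socs2 restrains growth hormone signalling, and AhR ligands are known to induce it in immune cells. Of its 11 tested peaks, LPS raised 7 in WT (63.6%) and 3 in AhR-KO (27.3%), where 25.4% and 27.3% of all tested peaks rose. With LPS 5 were lower in AhR-KO (45.5%) and 1 was higher (9.09%), against 13.1% and 13.4% of all tested peaks. In the intron, a peak 21.9 kb from the 5′ end (chr10:95394879-95395731, chosen after its values were seen) went from a mean of 1.5 to 3.32 CPM with LPS in WT (log2 1.11) and from 1.56 to 1.41 CPM in AhR-KO (-0.14). The interaction was -1.25, the lowest of any member peak. Intronic peaks at 20.6 and 12.3 kb, chosen after their values were seen, make up 2 of the 5 lower ones. They passed the filter only through the WT LPS libraries, so that their difference (0.878 against 0.37 CPM and 0.599 against 0.311 CPM with LPS) was set by that choice. Both are also among the 7 peaks raised in WT and not among the 3 raised in AhR-KO, which the same choice favoured. By contrast, the peak 45.1 kb from the 5′ end, past the 3′ end (chr10:95371745-95372383), was higher in AhR-KO at rest, with 4.19, 5.83 and 6.97 CPM in WT and 9.3, 9.55 and 10.3 CPM in AhR-KO. The groups did not overlap (0.75 ± 0.104, adjusted p = 2.97e-07, edgeR), and LPS raised the peak in both, to means of 14.9 and 19.2 CPM.

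Socs3, which shuts off receptors of the IL-6 type, had 15 peaks, of which 3 were DARs at rest, all higher in AhR-KO, and none was a DAR with LPS. Below the fold limit with LPS, the peak at 5.5 kb (chr11:117963277-117965842) was higher in AhR-KO by 0.38 (adjusted p = 6.09e-05, edgeR) and a peak 6.2 kb upstream (chr11:117975854-117976675) was lower by -0.33 (adjusted p = 0.00204, edgeR), both without overlap and both chosen after their values were seen. The peak 7.7 kb downstream (chr11:117962115-117962531), whose window is printed above with its STAT match, stood at 4.23, 5.12 and 6.63 CPM in WT unstimulated and 7.6, 9.25 and 10.5 CPM in AhR-KO unstimulated. These did not overlap (0.84 ± 0.116, adjusted p = 2.8e-07, edgeR). With LPS the medians were 5.72 CPM in WT and 5.74 CPM in AhR-KO, since LPS lowered the peak in AhR-KO (-0.66) and left it at 0.22 in WT, and the interaction was -0.88 ± 0.16 (adjusted p = 0.000238, edgeR). At 23.3 kb (chr11:117946276-117947294) and 19.9 kb upstream (chr11:117989552-117990439) the resting difference was 0.62 and 0.59, close to the fold limit. The first fell to 0.57 without AhR-KO unstimulated replicate 1, and the second to between 0.55 and 0.57 without WT unstimulated replicate 1 or AhR-KO unstimulated replicate 1, 2 or 6. The peak 9.6 kb upstream (chr11:117979186-117980028) had an interaction of -0.71, with genotype differences of 0.46 at rest and -0.25 with LPS that were both under the limit.

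LPS acted on Socs3 at the flanks. The wide peak just past the 3′ end (5.5 kb) rose from a mean of 22 to 42.8 CPM in WT and from 30.2 to 55.6 CPM in AhR-KO, log2 changes of 0.96 and 0.88. A small peak 13.7 kb upstream (chr11:117983697-117983885), chosen in the same way, rose from 0.145 to 1.37 CPM in WT and from 0.122 to 2.05 CPM in AhR-KO. It passed the filter only through its LPS libraries, which favoured this rise. The peak 15.7 kb downstream (chr11:117954101-117954584) fell in both genotypes, by log2 values of -0.69 and -1.21.

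Cish, a STAT5-induced member of the family, had 12 peaks and no DAR between genotypes in either state. LPS raised 3 and lowered 2 of them in both genotypes. The peak 17.3 kb upstream (chr9:107278285-107279174) stood at 7.13, 8.13 and 9.58 CPM in WT unstimulated and 21.3, 23.1 and 28.4 CPM in WT LPS, and at 6.0, 7.36 and 7.84 and 27.3, 29.4 and 31.6 CPM in the AhR-KO groups. Neither pair overlapped, with LPS changes of 1.54 ± 0.0805 and 2.02 ± 0.0798 (adjusted p = 1.95e-18 and 2.82e-22, edgeR). The peaks at 13 kb (chr9:107282866-107283222) and 10.8 kb upstream (chr9:107285119-107285317) fell in WT (-0.75 and -0.83) and in AhR-KO (-0.73 and -0.77).

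Dusp1, the nuclear phosphatase that ends p38 and JNK signalling, had 20 peaks, many of them in the long GENCODE record upstream of the short transcripts. LPS raised 5 in WT and 7 in AhR-KO. The peak 31.9 kb into the record (chr17:26530107-26530337) had 0.066, 0.124 and 0.248 CPM in WT unstimulated and 2.63, 2.95 and 3.68 CPM in WT LPS, a log2 change of 4.46 ± 0.253 (adjusted p = 1.83e-17, edgeR) that was the largest rise of any member peak. In AhR-KO it rose by 3.45, to a median of 2.91 CPM. The filter passed this peak only through its LPS libraries, since 0 WT and 1 AhR-KO unstimulated libraries were over the limit. Its rise with LPS was thus favoured in advance. A resting genotype difference at this low level (1.0, adjusted p = 0.0414, edgeR) no longer passed without any 1 of 7 libraries: WT unstimulated replicates 1 to 5 and AhR-KO unstimulated replicates 2 and 6, with values from 0.71 to 1.0.

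The largest genotype difference of the set was also in the long GENCODE record of Dusp1, 10.8 kb into it (chr17:26551074-26551591). The RefSeq record of Dusp1 reaches only to position 26508472. This peak and the one 31.9 kb into the GENCODE record lie more than 20 kb upstream of it, and so are not among the peaks kept with the RefSeq record. The 6 WT LPS libraries had 1.12, 3.07 and 4.56 CPM and the 6 AhR-KO LPS libraries 0.326, 0.538 and 1.13 CPM, while both unstimulated groups stayed under 0.5 CPM. The LPS groups met at 1 library each and otherwise stood apart, with a genotype difference of -2.21 ± 0.333 (adjusted p = 4.58e-06, edgeR). Broad peaks covered it in all 6 WT LPS libraries and in 0 of 6 AhR-KO LPS libraries. LPS raised it in both genotypes, by 3.45 in WT and 2.26 in AhR-KO. The difference of -1.19 between these did not pass (adjusted p = 0.38, edgeR). The filter passed this peak only through its LPS libraries, which favoured the rise with LPS. A peak beyond the 3′ end (chr17:26486950-26487744) was higher in AhR-KO with LPS by 0.6, which dropped to between 0.54 and 0.58 without WT LPS replicate 1 or 3 or AhR-KO LPS replicate 1 or 2. A peak 29.3 kb into the record (chr17:26532750-26532952) fell with LPS in WT by -0.64, and by -0.57 without WT LPS replicate 6.

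Dusp2 (PAC-1), a nuclear phosphatase of immune cells, had 4 peaks. The one 12.5 kb upstream (chr2:127322443-127324802) stood at 3.63, 4.59 and 6.02 CPM in WT unstimulated and 6.13, 7.54 and 7.79 CPM in AhR-KO unstimulated, and at 9.36, 12 and 14 and 9.09, 9.47 and 10.5 CPM in the LPS groups. The resting groups did not overlap and AhR-KO was higher (0.64 ± 0.11, adjusted p = 1.43e-05, edgeR), while with LPS the groups overlapped and the difference was -0.31. LPS raised it by 1.34 in WT and 0.39 in AhR-KO, with an interaction of -0.95 ± 0.146 (adjusted p = 2.75e-05, edgeR). Without WT unstimulated replicate 4 the resting difference was 0.57, under the fold limit. Past the 3′ end, at 10.3 kb (chr2:127346217-127346743, chosen after its values were seen), the resting difference was in the opposite direction, with 2.09, 2.88 and 3.43 CPM in WT and 1.57, 1.74 and 2.16 CPM in AhR-KO (-0.69, adjusted p = 8.11e-05, edgeR). With LPS it was -0.5, under the fold limit, and the groups did not overlap.

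Dusp4 (MKP-2), a nuclear phosphatase of ERK and JNK, had 8 tested peaks. At rest 2 were lower and 0 higher in AhR-KO, and with LPS 1 was lower and 2 were higher. The intronic peak 10.5 kb from the start (chr8:34817540-34817993) stood at 3.72, 6.04 and 7.59 CPM in WT unstimulated against 2.28, 2.66 and 2.94 CPM in AhR-KO, which did not overlap. The difference was -1.17 ± 0.145 at rest and -0.65 ± 0.141 with LPS (adjusted p = 3.58e-08 and 0.000232, edgeR), and the interaction of 0.52 did not pass (adjusted p = 0.0776, edgeR). The peak at 8.5 kb (chr8:34815092-34816600) was lower by -0.68 at rest and by -0.44, under the fold limit, with LPS. Summed over its 9 peaks, Dusp4 had 50.9 ± 3.06 CPM in WT and 38.1 ± 1.63 CPM in AhR-KO without LPS, and 59.0 ± 4.06 and 45.3 ± 3.0 CPM with it, with no overlap between genotypes in either state. A peak 18.4 kb upstream (chr8:34788775-34788933) stood at 0.486, 0.56 and 1.17 CPM in AhR-KO LPS and at no more than 0.359 CPM in any other library. It passed the filter only through the AhR-KO LPS libraries and so had to differ. The other peak higher with LPS lay 8.8 kb upstream (chr8:34798281-34798671, chosen after its values were seen). With LPS it averaged 0.574 CPM in WT and 1.03 CPM in AhR-KO (0.83, adjusted p = 0.0426, edgeR). The groups overlapped, at 0.449, 0.593 and 0.667 CPM in WT LPS and 0.608, 0.836 and 2.08 CPM in AhR-KO LPS. Broad peaks covered it in 0 of 6 WT LPS and 2 of 6 AhR-KO LPS libraries. This peak passed the filter only through its LPS libraries.

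Dusp5, a nuclear phosphatase for ERK, had 14 peaks, of which LPS raised 6 in either genotype. The peak 17.2 kb upstream (chr19:53511696-53512114), printed above with its AP-1 match, rose from 0.116, 0.334 and 0.462 CPM to 3.36, 4.18 and 6.39 CPM in WT and from 0.216, 0.294 and 0.424 to 1.79, 2.06 and 3.12 CPM in AhR-KO. All AhR-KO LPS libraries were below all WT LPS libraries (-1.05 ± 0.154, adjusted p = 7.58e-07, edgeR), and the interaction was -0.99 (adjusted p = 0.0684, edgeR). The filter passed this peak only through its LPS libraries, which favoured its rise with LPS. The peak 18.7 kb from the start, past the 3′ end (chr19:53547552-53548028), was lower in AhR-KO in both states, by -0.95 ± 0.158 and -1.23 ± 0.165 (adjusted p = 8.02e-06 and 2.04e-07, edgeR).

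Dusp16 (MKP-7), a phosphatase with a preference for JNK, gained accessibility at many places along its length with LPS. Of its 37 peaks, 22 rose in WT (59.5%) and 25 in AhR-KO (67.6%), against 25.4% and 27.3% of all tested peaks. The rise was shared by 21, and none of the 37 fell, while the promoter (chr6:134790098-134793051) stayed between group means of 26.6 and 31.1 CPM. Many of the raised peaks were of low level. Some, such as the one 19.6 kb into the gene, passed the filter only through their LPS libraries, which favoured a rise. RefSeq places a further start of Dusp16 upstream of the GENCODE basic record, under the peak at chr6:134806067-134807388. This peak rose from 6.49, 6.83 and 7.8 CPM to 16, 19.4 and 23.5 CPM in WT, by 1.51 ± 0.0904 (adjusted p = 9.16e-17, edgeR), and by 1.71 in AhR-KO. Its neighbour at chr6:134802539-134803138 rose by 1.26 in WT and 1.65 in AhR-KO. The peak past the 3′ end at chr6:134708123-134708599 (chosen after its values were seen) rose from 0.64 to 6.62 CPM in WT and from 0.554 to 8.25 CPM in AhR-KO, log2 changes of 3.33 and 3.88.

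**Figure D3:**
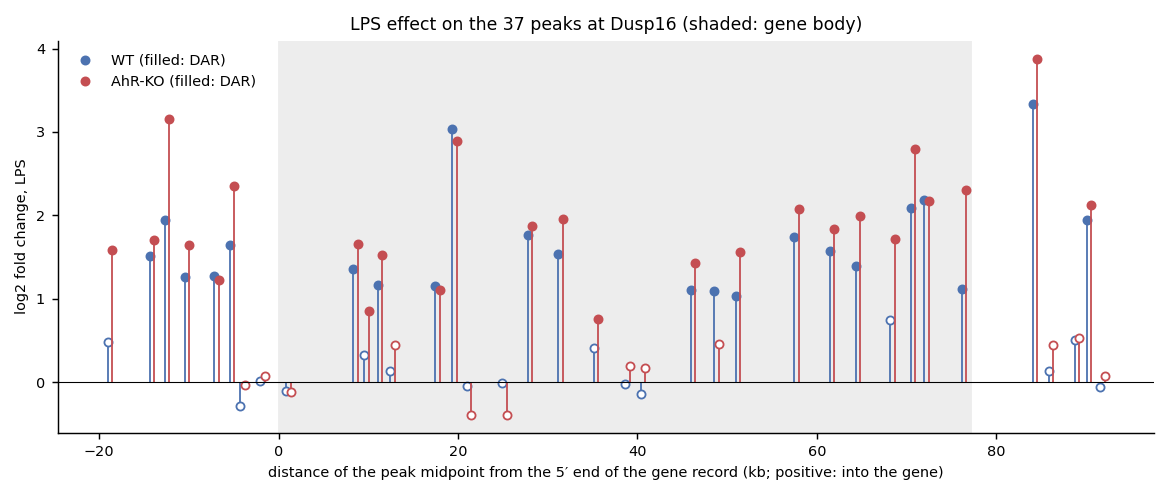
The log2 fold change of LPS over unstimulated for each of the 37 peaks at Dusp16 (y axis) by the distance of its midpoint from the 5′ end of the gene record in kb (x axis), in WT and AhR-KO; the gene body is shaded and filled points are DARs. Rises lie on both sides of and throughout the gene body, and the promoter peak near 0 stays at -0.1 in WT and -0.12 in AhR-KO.

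At 4 Dusp16 peaks the LPS effect was larger in AhR-KO. Over the 3′ end (chr6:134715230-134717230), AhR-KO was lower at rest, with 2.65, 3.31 and 4.57 CPM against 5.43, 6.7 and 7.43 CPM in WT, which did not overlap (-0.96 ± 0.124, adjusted p = 8.92e-08, edgeR). With LPS the groups overlapped, at 14.3, 16.7 and 20.3 CPM in AhR-KO and 11.3, 14.5 and 16.9 CPM in WT. The interaction was 1.19 ± 0.158 (adjusted p = 3.05e-06, edgeR). Upstream, at 12.4 kb (chr6:134804756-134805341), the genotypes overlapped at rest and met only at the edge with LPS, at 3.52, 5.65 and 6.28 CPM in AhR-KO against 2.46, 2.71 and 3.65 CPM in WT (0.88 ± 0.139, adjusted p = 2.84e-06; interaction 1.2, adjusted p = 0.00295, edgeR). The peak at 5.2 kb upstream (chr6:134797687-134797953) was higher in AhR-KO with LPS by 0.71, with an interaction of 0.7 that was 0.55 and no longer passed without WT unstimulated replicate 3. At 18.8 kb upstream (chr6:134811287-134811558) the interaction was 1.1.

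Zfp36 had 8 peaks, of which 1 was a DAR between genotypes. Below the fold limit, the peak 2.0 kb upstream (chr7:28380974-28383512, chosen after its values were seen) was higher in AhR-KO at rest, with 54.9, 60.9 and 62.7 CPM in WT and 63.7, 72.7 and 102 CPM in AhR-KO (0.39, adjusted p = 0.000561, edgeR). The peak 22 kb from the 5′ end, past the 3′ end (chr7:28357882-28358611) and printed above with its AP-1 and STAT matches, stood at 0.947, 1.96 and 2.51 CPM in WT LPS and 0.179, 0.456 and 1.03 CPM in AhR-KO LPS. The groups met only at the edge, and the difference was -1.92 ± 0.286 (adjusted p = 1.73e-06, edgeR). LPS raised the peak in WT (1.34, adjusted p = 0.00013, edgeR) but not past the threshold in AhR-KO (0.3, adjusted p = 0.486, edgeR), and the difference between these, the interaction of -1.03, did not pass (adjusted p = 0.143, edgeR). Broad peaks covered it in 5 of 6 WT LPS libraries and 0 of 6 AhR-KO LPS libraries. At rest the difference was -0.88 (adjusted p = 0.0526, edgeR); it passed without WT unstimulated replicate 3 or 5 or AhR-KO unstimulated replicate 1 or 2, at values from -1.01 to -0.98.

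**Figure D4:**
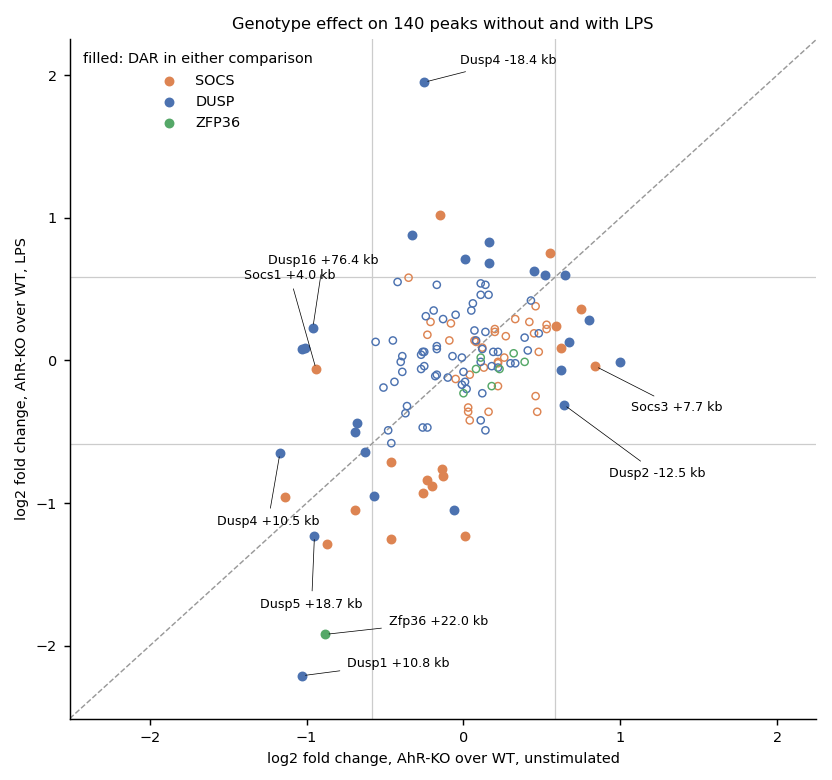
Each point is 1 of 140 tested peaks, with the log2 fold change of AhR-KO over WT without LPS on the x axis and with LPS on the y axis; grey lines mark a 1.5-fold change. Filled points are the 43 peaks that were a DAR in either state; 4 were DARs in the same direction in both, and the Dusp1 peak at +10.8 kb (-2.21) and the Zfp36 peak at +22 kb (-1.92) stand lowest with LPS.

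**Figure D5:**
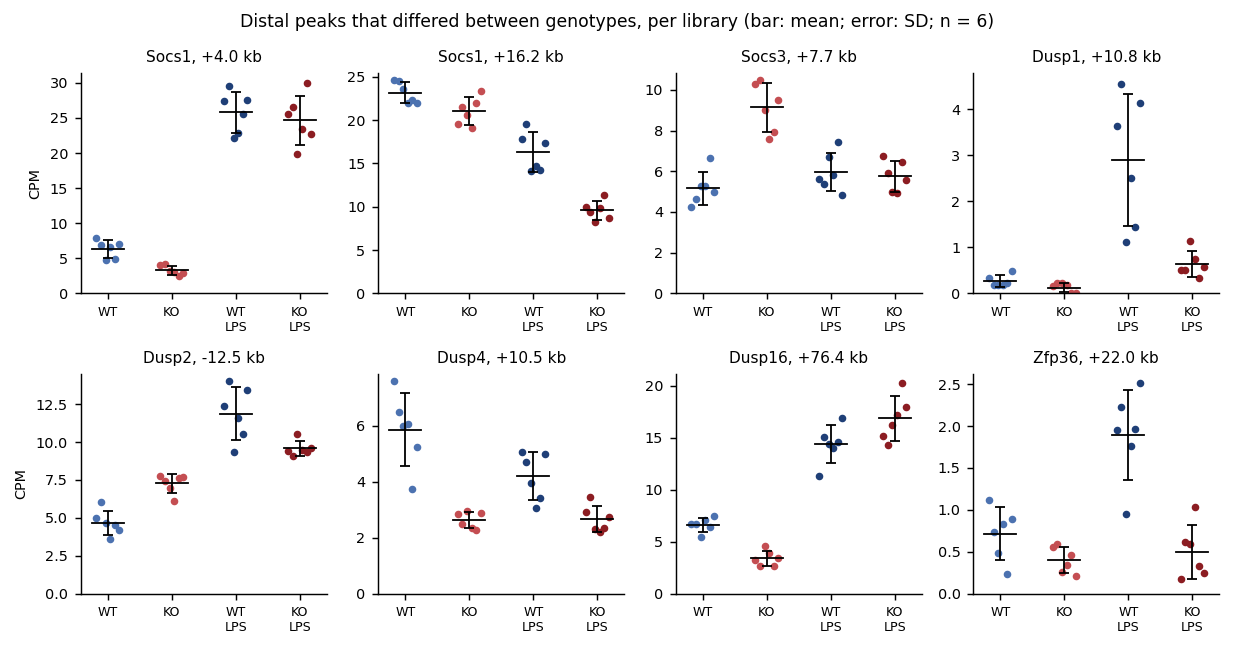
CPM per library at 8 peaks away from the promoters, with the mean and SD of 6 libraries per group; titles give the distance from the 5′ end of the gene record. At Socs1 +4.0 kb and Dusp16 +76.4 kb AhR-KO is lower at rest, at Dusp4 +10.5 kb in both states, at Socs3 +7.7 kb and Dusp2 -12.5 kb higher at rest, and at Socs1 +16.2 kb, Dusp1 +10.8 kb and Zfp36 +22 kb lower with LPS.

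By family, the 49 SOCS peaks held 11 that were lower and 2 that were higher in AhR-KO with LPS (22.4% and 4.08%), and the 83 DUSP peaks held 6 and 8 (7.23% and 9.64%), where 13.1% of all tested peaks were lower and 13.4% higher. The 11 lower SOCS peaks were 6 at Socs1 and 5 at Socs2, with 0 at Socs3 and 0 at Cish. Of the 5 at Socs2, 2 had passed the filter only through the WT LPS libraries, which set their direction. The higher DUSP peak 18.4 kb upstream of Dusp4 had passed only through the AhR-KO LPS libraries. Of the 18 member peaks lower in AhR-KO with LPS, 1 held an AhR core in its 300 bases (5.56%), against 14.9% of all peaks lower in that comparison; 5 held a STAT match (27.8%), against 14.5%. Of the 58 raised by LPS in WT, 18 held an AP-1 match (31%), against 35.6% of all raised peaks.

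Other feedback regulators and the receptors upstream of them were taken as 7 lists of 40 genes in all, with 563 tested peaks. LPS raised 32.5% and lowered 11% of these in WT, and raised 34.5% and lowered 12.6% in AhR-KO, against 25.4% and 21.6% and 27.3% and 21.5% of all tested peaks. The 8 other DUSP genes had 35 of 87 peaks raised (40.2%) and 11 lowered (12.6%) in WT, and the 4 genes whose mRNAs ZFP36 binds had 18 of 46 raised (39.1%) and 2 lowered (4.35%). The 3 other SOCS genes had 3 of 28 raised (10.7%) and 6 lowered (21.4%), the 2 other ZFP36 genes 5 of 18 raised (27.8%) and 3 lowered (16.7%), and the 11 receptors and kinases 74 of 197 raised (37.6%) and 22 lowered (11.2%). For genotype at rest, the 5 Sprouty and Spred genes, inhibitors of the RAS-ERK pathway, had 18 of 73 peaks lower (24.7%) and 0 higher in AhR-KO (median log2 -0.33), against 12.6% and 9.95% of all tested peaks. With LPS 15 were lower (20.5%) and 7 higher (9.59%), against 13.1% and 13.4%, and LPS raised 19 (26%) and lowered 7 (9.59%) in WT. The 7 phosphatases and other inhibitors of JAK-STAT signalling had 4 of 114 lower (3.51%) and 20 higher (17.5%) at rest (median 0.22). Of these 114, 13 had a lower (11.4%) and 2 a higher interaction (1.75%), against 4.58% and 5.83%, and LPS raised 29 (25.4%) and lowered 11 (9.65%) in WT.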

How the data were processed

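ATAC-seq was measured in 24 libraries, 4 groups of 6 by their labels. The deposited table holds raw counts of read pairs, produced by the authors with default settings of the nf-core atacseq workflow for mm10 (broad peaks per library with MACS2, merged over all libraries; featureCounts 2.0.1 per the file header, a pair counting for every peak that held a fraction of at least 0.2 of it). Per the deposited files, each library's broad peak list gives a -log10 q-value; only positions were used here, and no replicates were pooled. The study describes 6 animals per group.

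Members, lists and tests were chosen with earlier results of these data known. Peaks were assigned with GENCODE vM21 on GRCm38. Counts were tested in edgeR 4.0.16 (R 4.3.3): filterByExpr by group, TMM, trended dispersion, robust quasi-likelihood fit of all 24 libraries with group as the only term. P-values are two-sided, adjusted by Benjamini-Hochberg over 174193 peaks. SE is the log2 change divided by the square root of F. Peaks named were each member's promoter, the 4 DARs with the smallest p per comparison and direction, and each member's genotype DAR with the smallest p; the Dusp1 short-transcript peak came from the annotation, and any other was chosen after its values were seen. Depth was 8.54 to 34.6 M counts in peaks. The procedure was tested on simulated data. Same-group libraries all differed beyond sampling noise (lowest chi-square per peak 1.23). Alternatives included DESeq2 1.42.0, other size factors, filters, dispersions, flanks and leaving out each library.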

Additional observations from a re-analysis of the deposited data

Results flagged for a closer look

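The effect of LPS differed between genotypes, by the interaction test over all peaks, at 15 member peaks (log2, AhR-KO minus WT). The change with LPS was a larger increase in AhR-KO at Dusp16 (1.19 over the 3′ end, 1.2, 1.1 and 0.7 upstream) and at Socs1 over the 3′ end (0.88). The interaction was also positive at Dusp5 28.3 kb from the start (0.69; change with LPS -0.24 in WT and 0.45 in AhR-KO) and at Dusp1 8.1 kb upstream (1.1; -0.39 and 0.71). The interaction was negative at Socs2 (-1.25 in the intron and -0.83 past the 3′ end), Dusp2 (-0.95), Socs3 (-0.88 downstream and -0.71 upstream), Dusp1 (-0.69 at 17.5 kb into the record) and Socs1 (-0.68 and -0.62 downstream). Of these, LPS raised the Dusp2 and Dusp1 peaks in both genotypes, by less in AhR-KO. At Socs1 it lowered the 16.2 kb peak in both (-0.51 in WT, -1.13 in AhR-KO), while the 10.7 kb peak changed by -0.07 and -0.76. The Socs2 and Socs3 peaks had positive values in WT and negative ones in AhR-KO, such as 0.22 and -0.66 at the downstream Socs3 peak.

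Of 164 sets of 6 libraries at the named peaks, 6 had 1 library far above the other 5, where chance alone gives about 1 in 20. These were AhR-KO LPS replicate 5 at the Cish peak 10.8 kb upstream (6.27 CPM), WT unstimulated replicate 6 (0.248 CPM) and AhR-KO unstimulated replicate 2 (0.595 CPM) at the Dusp1 peak 31.9 kb into the record, AhR-KO LPS replicate 3 at the Dusp2 peak 12.5 kb upstream (10.5 CPM), WT LPS replicate 6 at the Dusp4 peak 18.4 kb upstream (0.359 CPM) and AhR-KO unstimulated replicate 2 at the Dusp4 promoter (26.1 CPM).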

How the results depend on the processing

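Counts are given in the order AhR-KO minus WT without LPS, AhR-KO minus WT with LPS, LPS in WT, LPS in AhR-KO, interaction, each as lower and higher. DESeq2, other size factors, no filter on low counts, a dispersion per peak and the 12 libraries of a comparison alone left every count within 1.5 times. A fold limit of 2 gave 4 and 1, 8 and 2, 0 lower, 3 lower, and 1 and 4. No fold limit gave 23 and 31, 36 and 32, 13 and 88, 26 lower, and 25 and 12. Flanks of 5 kb gave 4 and 4, 8 and 1, 2 and 30, 3 and 31, and 3 and 2. Peaks whose nearest coding start was the member's gave 5 higher at rest, 6 higher with LPS, 2 lower with LPS in WT and 5 lower for the interaction. Peaks also within 20 kb of the RefSeq record, chosen after seeing the data, gave 5 higher at rest; without Dusp16, also chosen then, 5 were higher in AhR-KO with LPS, LPS raised 36 in WT and 32 in AhR-KO, and 3 had a higher interaction. Counts not named stayed within 1.5 times. Leaving out 1 library gave 10 to 13 and 6 to 11, 17 to 19 and 6 to 11, 4 to 6 and 55 to 60, 8 to 11 and 54 to 60, and 7 to 10 and 6 to 8.

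Among 138 pairs of named peak and comparison, calls changed at 2 beside leaving out libraries: with the 12 libraries alone the Dusp1 peak beyond the 3′ end (higher in AhR-KO with LPS) was lost at 0.58, and the Zfp36 peak at 22 kb (lower at rest) was gained at -0.87, as it was with the replicate block and with a dispersion per peak (-0.87 each). Signs turned only where the value was near 0: the Socs3 promoter with LPS (0.0 with the 12 libraries; -0.04 to 0.07 without 1 library), the Dusp1 record start at rest (0.0 with the replicate block; -0.03 to 0.05) and with LPS in WT (-0.01 to 0.07), the Dusp5 promoter at rest (0.05 with DESeq2 and with RLE size factors; -0.03 to 0.01), the Zfp36 promoter with LPS in AhR-KO (0.0 with both; -0.01 to 0.11) and by genotype with LPS (-0.1 to 0.02), the Dusp4 promoter with LPS in WT (-0.02 to 0.04) and the Dusp16 promoter interaction (-0.11 to 0.02). The cause was not tested. Over the whole peak in place of 300 bases, a match was held by 34.3% of member peaks for the AhR core, 30.7% for STAT, 36.4% for AP-1, 2.14% for CRE, 16.4% for PU.1, 25% for the ISRE repeat and 15.7% for NF-κB. The genotype groups share replicate numbers. Libraries of 1 number correlated from 0.0486 to 0.343 between WT unstimulated and WT LPS, from 0.00876 to 0.21 between the AhR-KO groups, and from -0.144 to 0.268 across genotypes. Between the WT groups the median was 0.261 for the same number and -0.0699 for other numbers, and between the AhR-KO groups 0.0848 and -0.00516. The same number correlated highest for 4 of 6 WT and 3 of 6 AhR-KO libraries. Since not every pair was over 0.1 in any of these, the numbers were not taken to pair samples. The main LPS tests thus ignore any pairing within a genotype, which the blocked fits allow for. With the replicate block, counts were 11 and 9, 18 and 10, 5 and 58, 10 and 58, and 9 and 7; blocked within genotype, LPS gave 5 and 58, and 10 and 58, and the interaction 10 and 7. Depth limits peaks under 1 CPM, where a library of 8.54 M counts holds few reads.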
